A study of Mus musculus with 7 samples.

Results

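The genes described here make and load MHC class II, the surface molecule with which macrophages, dendritic cells and B cells show peptides to CD4+ T cells. They were chosen by name, as 10 genes that encode the chains, the loading machinery and the main activator of class II. The choice was made with earlier results of these data known. Of the 19938 genes measured, 9 of the 10 had a row of their own in the expression table. H2-DMb1 shares its row with another gene symbol and was not analysed here. Each of the 9 genes had 1 row.

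Gene expression was measured on 7 Affymetrix arrays of macrophages sorted from the colon lamina propria of C57BL/6 mice at 6 weeks of age. The control mice, labelled wild type, carry GFP in 1 Cx3cr1 allele (Cx3cr1gfp/+). They gave 3 arrays of cells labelled resident and 1 array of cells labelled CX3CR1hi. Mice labelled CX3CR1cre:IL10Raflox/flox delete the interleukin-10 receptor chain Il10ra in cells that express Cre from Cx3cr1, and gave 2 arrays of resident cells, named below Il10ra-deleted arrays 1 and 2. Mice labelled IL10-/- CX3CR1gfp/+ lack IL-10 in all cells, and gave 1 array of CX3CR1hi cells. Cx3cr1 is active in other mononuclear phagocytes as well, so the deletion is not limited to gut macrophages. No array carries Cre without the deletion, so the Cre allele and the deletion cannot be told apart. The label of the Il10ra-deleted mice names no GFP, which all controls carry. The GFP allele thus cannot be told apart from the deletion either. The design asks how colonic macrophages that lack the receptor, or that come from mice without IL-10, differ from wild type ones. Whether each array stands for its own animal is not given, and the spread behind every p-value is that between arrays, which may be technical.

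Class II is built from an alpha and a beta chain. In the endoplasmic reticulum both chains bind the invariant chain Cd74, which fills the groove and guides the complex to endosomes. There proteases trim Cd74, the chaperone H2-DM exchanges its remnant for peptide, and H2-O holds H2-DM back. Ciita is the activator that switches on the whole set, is itself induced by interferon-gamma, and works through factors bound to shared promoter elements named the X box and the Y box. IL-10 is known to lower class II display by macrophages, and resident gut macrophages are known for abundant class II.

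The labels were checked on the targeted gene. Il10ra stood at log2 10.56, 10.76 and 11.12 in the resident control arrays and at 8.05 and 7.04 in the Il10ra-deleted arrays, a difference of -3.27 ± 0.38 (SE). Il10 stood at 11.04 in the CX3CR1hi control array and 10.75 in the array labelled Il10-deficient, and where its probes lie relative to the deleted part was not analysed here. All 12 macrophage markers were measured, with list means of 11.81 to 12.17 in the 7 arrays. Epithelial transcripts were bright too, with list means of 10.80 to 11.53 in 6 arrays and 9.19 in Il10ra-deleted array 2. The arrays of both sort labels differ at the top of their scale. Values reached 13.78 and 13.88 in CX3CR1hi cells, against 14.62 to 14.78 in resident cells. A different RNA extraction kit was used for the first 2 samples, which are the CX3CR1hi arrays if the protocol counts in series order. Sort label and kit then cannot be told apart, so mutants are compared with controls of the same label only.

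The promoter letters that Ciita acts through were read from RefSeq sequences (GRCm38.p6), to show which of the genes carry the shared elements. Of the 10 genes 7 have an entry. H2-Ab1, Cd74 and Ciita have none. In the 250 bases before the start site, both strands were searched for GCAAC (or GTTGC), the core of the X box bound by RFX, and for ATTGG (or CCAAT), the core of the Y box bound by NF-Y. A pair was counted where both lay in the same orientation with 20 to 35 bases between them, a spacing chosen after the sequences were seen. Pairs were found in H2-Aa, H2-Eb1, H2-Oa and H2-Ob, all in the gene's own direction, with gaps of 28, 27, 28 and 25 bases. Of all 32851 promoter entries 33.8% held ATTGG or CCAAT, 29.9% held GCAAC or GTTGC, and 0.673% held such a pair. The stretch from X core to Y core, with both cores in capitals, reads as follows in the 4 genes.
H2-Aa: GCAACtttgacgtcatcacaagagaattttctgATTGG
H2-Eb1: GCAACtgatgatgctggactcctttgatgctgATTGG
H2-Oa: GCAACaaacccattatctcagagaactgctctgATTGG
H2-Ob: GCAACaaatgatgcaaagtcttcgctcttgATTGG

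The 250 bases before the start are given for 4 genes that differ in their elements and, below, in their values. H2-Aa (a chain whose row was flat) and H2-Oa (the largest difference) hold the pair. The upstream entry of H2-DMa holds only GTTGC, next to the start, and Ifi30 holds neither core. A second H2-DMa start and H2-DMb1 hold ATTGG alone. Capitals mark the searched letters. No match says only that these letters are not in this window.
H2-Aa, GRCm38.p6 chr17:34287824-34288073, minus strand: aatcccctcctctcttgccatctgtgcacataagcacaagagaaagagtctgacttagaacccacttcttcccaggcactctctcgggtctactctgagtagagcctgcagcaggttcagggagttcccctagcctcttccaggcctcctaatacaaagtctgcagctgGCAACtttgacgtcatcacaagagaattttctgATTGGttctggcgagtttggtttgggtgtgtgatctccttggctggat
H2-Oa, GRCm38.p6 chr17:34092129-34092378, plus strand: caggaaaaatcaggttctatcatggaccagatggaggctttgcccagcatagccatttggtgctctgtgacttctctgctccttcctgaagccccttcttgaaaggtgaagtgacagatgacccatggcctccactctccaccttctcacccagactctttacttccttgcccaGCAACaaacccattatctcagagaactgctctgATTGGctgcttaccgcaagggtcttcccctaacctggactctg
H2-DMa, GRCm38.p6 chr17:34122582-34122831, plus strand: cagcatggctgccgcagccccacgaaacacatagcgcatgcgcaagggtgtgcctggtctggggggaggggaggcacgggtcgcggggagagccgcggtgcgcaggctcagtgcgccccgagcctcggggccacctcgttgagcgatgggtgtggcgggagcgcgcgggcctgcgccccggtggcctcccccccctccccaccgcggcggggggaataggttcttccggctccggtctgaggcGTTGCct
Ifi30, GRCm38.p6 chr8:70766664-70766913, minus strand: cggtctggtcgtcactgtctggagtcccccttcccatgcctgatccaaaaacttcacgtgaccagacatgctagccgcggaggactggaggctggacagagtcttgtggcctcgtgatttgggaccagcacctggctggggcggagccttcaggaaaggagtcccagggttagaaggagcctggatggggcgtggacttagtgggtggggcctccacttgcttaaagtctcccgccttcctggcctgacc

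**Figure D1:**
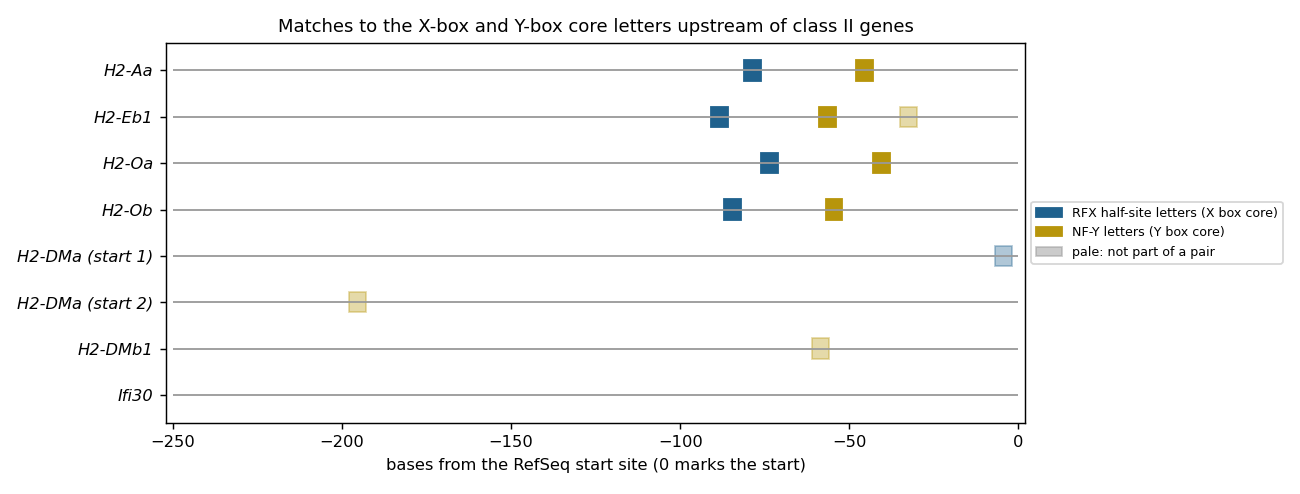
Positions of matches to the X-box core (blue) and Y-box core (yellow) letters in the 250 bases before each RefSeq start, by distance in bases, with pale marks for matches outside a pair. The pairs of H2-Aa, H2-Eb1, H2-Oa and H2-Ob lie from -91 to -39 relative to the start, and Ifi30 has no match.

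In macrophages without Il10ra, 4 of the 9 genes were higher in both arrays than in any resident control array: H2-DMa, H2-Oa, Ciita and Ifi30. The classical chains H2-Aa and H2-Eb1 and the invariant chain Cd74 differed from control by at most 0.05 on the log2 scale, and H2-Ab1 by 0.12. The differences of all 9 genes were above 0, as were those of 48.8% of all genes tested. Their median was 0.22, beside 0.00 over all genes tested. No gene of the set passed by limma at an adjusted p under 0.05, the threshold for a call, at which 0.00502% of all genes passed (1 gene). At an unadjusted p under 0.05, 4 of 9 were higher, the same genes whose arrays do not overlap, against 4.06% of all genes. Of all genes, 8.92% had both Il10ra-deleted arrays above all 3 controls. With 2 against 3 arrays an exact permutation test of the absolute difference cannot give a p below 0.1.

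The classical chains form the peptide groove. H2-Aa and H2-Ab1 encode the alpha and beta chain of I-A, and H2-Eb1 the beta chain of I-E. H2-Aa stood at log2 13.55, 13.56 and 13.56 in the resident controls and 13.56 in both Il10ra-deleted arrays. Its value was identical in 4 of the 5 resident arrays, and the groups overlap. The difference was 0.00 ± 0.04 (SE, 95% confidence interval -0.11 to 0.12).

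H2-Eb1 stood at 13.46 in all 3 controls and at 13.46 and 13.48 in the Il10ra-deleted arrays. Its difference was 0.01 ± 0.04 (SE, interval -0.10 to 0.13), and Il10ra-deleted array 1 had the same value as control array 1. H2-Ab1 stood at 13.51, 13.61 and 13.61 in the controls and at 13.61 and 13.78 in the Il10ra-deleted arrays. Only Il10ra-deleted array 2 lay above the controls for H2-Ab1, and the difference was 0.12 ± 0.08 (SE, interval -0.11 to 0.34, adjusted p = 0.678 by limma).

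C57BL/6 mice carry the b haplotype, which does not transcribe H2-Ea, the alpha partner of H2-Eb1, so no I-E reaches the surface. H2-Ea stood at 4.42 to 4.81 over the 7 arrays, under the table's median of 5.86.

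The rows of these chains are among the brightest of the table. Ranked by brightness of the row, H2-Aa lay between place 4 and 13 of the 19938 genes over the 7 arrays, H2-Ab1 between 6 and 13, Cd74 between 10 and 22 and H2-Eb1 between 14 and 21. Of the 30 genes with a mean of log2 13 or more, none (0%) differed by 0.5 or more between Il10ra-deleted and control arrays, and the largest difference was 0.31. Among genes with a mean of 10 to 12 that share was 16.0%, and among those from 8 to 10 it was 15%. Among genes with a mean from 12 to 13, it was 9.6%. The part of this brightness in the small differences of H2-Aa, H2-Ab1, H2-Eb1 and Cd74 was not tested. Identical values in at least 4 resident arrays were found for 15.4% of all genes, dim ones included, and this share was not taken for bright genes alone. In at least 2 resident arrays, values were identical for 40.0% of the 30 genes above log2 13 and for 60.4% of all genes.

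**Figure D2:**
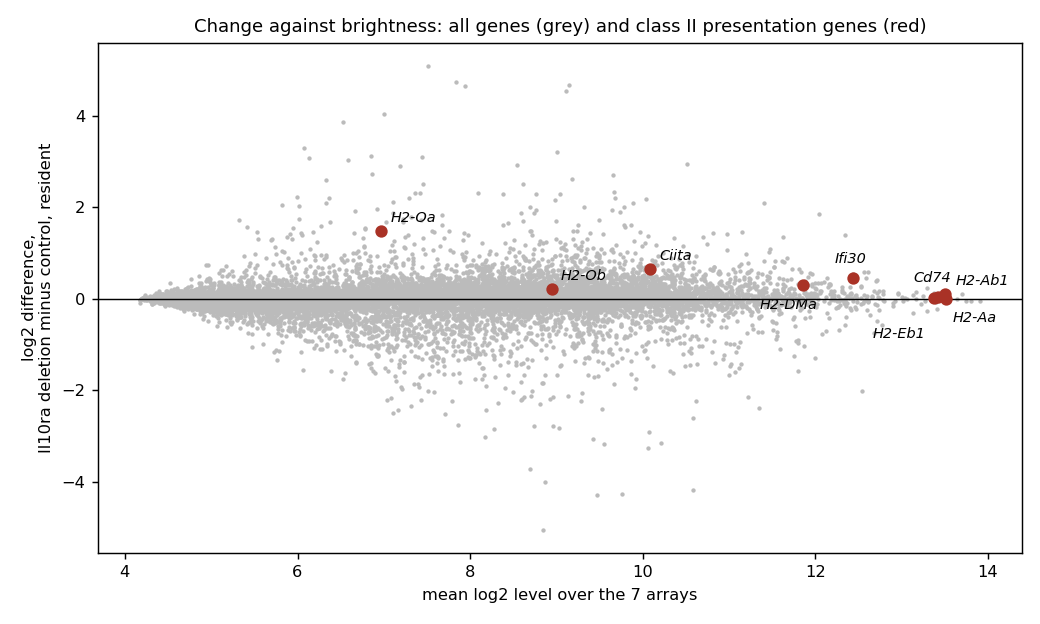
Difference in log2 level between Il10ra-deleted and control resident arrays (vertical axis) against the mean log2 level over 7 arrays (horizontal axis), for all genes (grey) and the 9 class II genes (red). H2-Aa, H2-Ab1, H2-Eb1 and Cd74 lie at the bright end, where no gene differs by 0.5 or more.

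Cd74, the invariant chain, differed as little as the classical chains. It stood at 13.54 in all 3 controls and at 13.54 and 13.64 in the Il10ra-deleted arrays. Il10ra-deleted array 1 matched a control and array 2 was above them. The difference was 0.05 ± 0.05 (SE, interval -0.09 to 0.19, adjusted p = 0.754 by limma).

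H2-DMa encodes the alpha chain of the peptide-exchange chaperone H2-DM. It stood at 11.63, 11.71 and 11.66 in the controls and at 11.93 and 12.01 in the Il10ra-deleted arrays, so the groups do not overlap. The difference was 0.30 ± 0.05 (SE), 1.23-fold, and did not pass (adjusted p = 0.369 by limma). The spread of its controls was small, at 0.04 (SD, n = 3).

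H2-Oa and H2-Ob encode the chains of H2-O, the inhibitor of H2-DM, and are known for expression in B cells and some dendritic cells. H2-Oa stood at 6.01, 6.17 and 7.15 in the controls and at 7.67 and 8.19 in the Il10ra-deleted arrays. Control array 3 lay well above the other controls, yet below both Il10ra-deleted arrays. Control arrays 1 and 2 were near the table's median of 5.86, above 51.8% and 53.9% of all genes in their arrays. The difference was 1.49 ± 0.44 (SE), 2.80-fold, with an interval of 0.24 to 2.73 (adjusted p = 0.542 by limma).

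H2-Ob stood at 8.63, 8.64 and 8.98 in the controls and at 8.54 and 9.40 in the Il10ra-deleted arrays. The arrays of the deletion lay on both sides of the controls, array 1 below and array 2 above. The difference was 0.22 ± 0.31 (SE, adjusted p = 0.810 by limma), and it was -0.21 without Il10ra-deleted array 2 and 0.65 without array 1. H2-O is built from both chains. Both Il10ra-deleted arrays were above the controls for H2-Oa, and 1 of them for H2-Ob.

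Ciita, the activator of the set, stood at 9.74, 9.56 and 10.06 in the controls and at 10.22 and 10.64 in the Il10ra-deleted arrays. The groups do not overlap, with 0.16 between the highest control and the lower Il10ra-deleted array. The difference was 0.64 ± 0.22 (SE), 1.56-fold (interval 0.02 to 1.27, adjusted p = 0.607 by limma).

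Ifi30 encodes GILT, the endosomal reductase that opens disulfide bonds of antigens. It stood at 12.11, 12.30 and 12.43 in the controls and at 12.69 and 12.80 in the Il10ra-deleted arrays. The groups do not overlap. The difference was 0.47 ± 0.12 (SE), 1.38-fold (interval 0.12 to 0.81, adjusted p = 0.486 by limma).

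**Figure D3:**
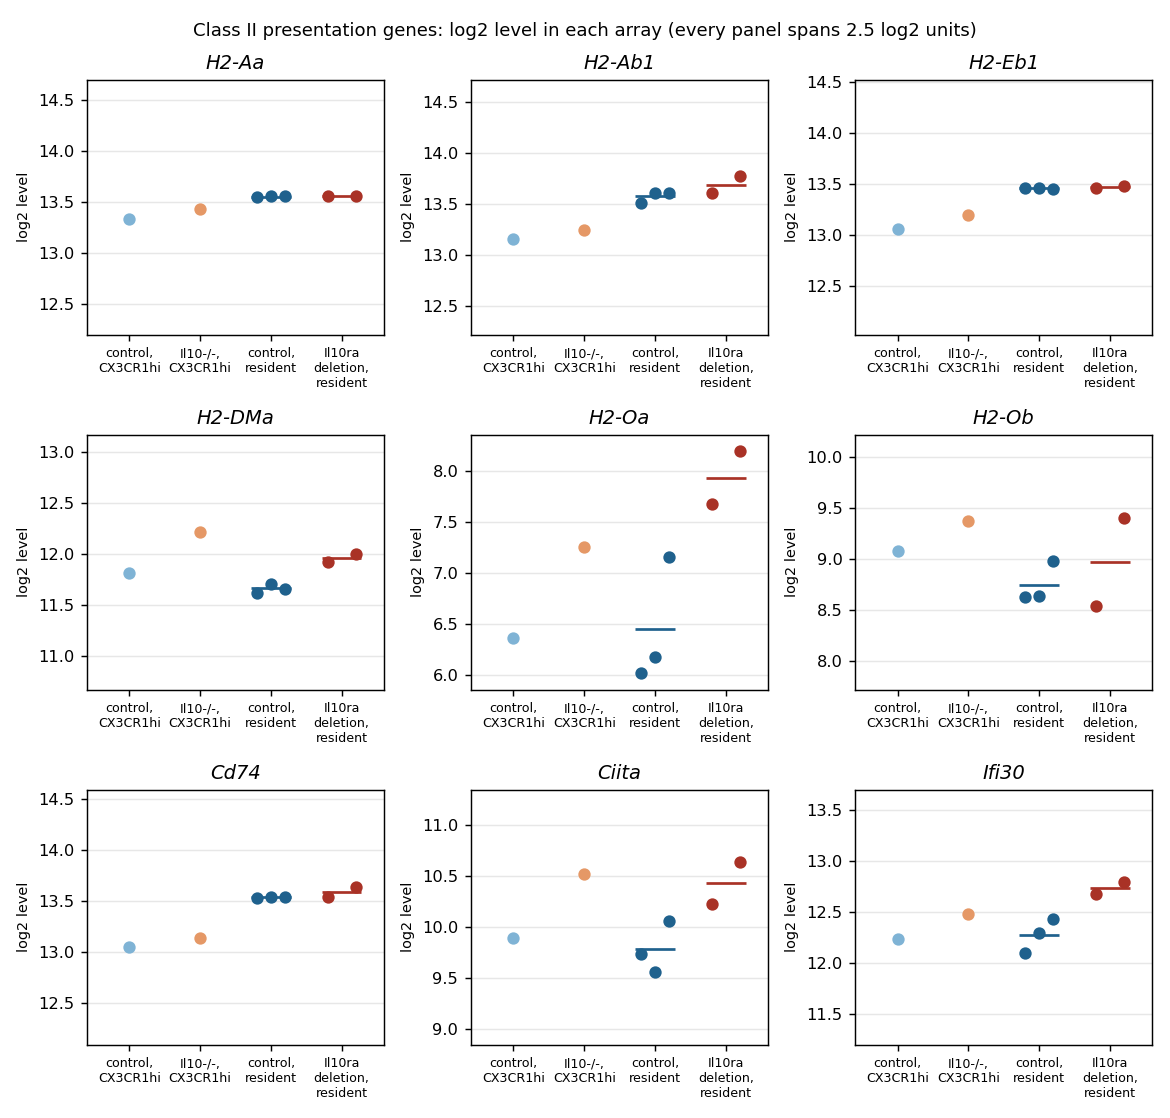
Log2 level of the 9 class II genes in each of the 7 arrays, by group, with the group mean as a line where a group has several arrays; each panel spans 2.5 log2 units. H2-DMa, H2-Oa, Ciita and Ifi30 are higher in both Il10ra-deleted arrays than in any resident control, while H2-Aa, H2-Eb1 and Cd74 are nearly level within the resident label.

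The resident arrays fall into runs of neighbouring sample codes, each with mutant and control arrays: Il10ra-deleted array 1 with controls 1 and 2, and Il10ra-deleted array 2 with control 3. Whether a run is a shared day is not given in the labels. Within these runs Ciita differed by 0.57 and 0.58, H2-DMa by 0.26 and 0.34, Ifi30 by 0.48 and 0.37 and H2-Oa by 1.58 and 1.04. H2-Ob differed by -0.10 and 0.42. H2-Ab1 differed by 0.05 and 0.17, Cd74 by 0.00 and 0.10, H2-Eb1 by 0.00 and 0.03, and H2-Aa by 0.01 and 0.00. For H2-DMa, H2-Oa, Ciita and Ifi30 a higher value in each run follows from both Il10ra-deleted arrays lying above all controls. It is no separate support. With the runs as a block in the model, 0 genes of the set passed.

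Set against each other as means, the classical chains differed less from control than the set of chaperones, invariant chain and Ciita. Not every gene of that set differed. Cd74 was at 0.05, within the range of the classical chains, and the Il10ra-deleted arrays lay on both sides of the controls for H2-Ob. The mean difference of H2-Aa, H2-Ab1 and H2-Eb1 from the control mean was 0.01 in Il10ra-deleted array 1 and 0.08 in array 2. For H2-DMa, H2-Oa, H2-Ob, Cd74 and Ciita it was 0.34 and 0.74, with single controls between -0.13 and 0.24. The gap between both sets, classical minus the others, was -0.33 and -0.66 in the Il10ra-deleted arrays and -0.23 to 0.12 in the controls. H2-Oa carries much of this gap. Without it, the other 4 genes averaged 0.12 in Il10ra-deleted array 1, 0.48 in array 2 and 0.12 in control array 3. The gap was then -0.11 in Il10ra-deleted array 1, -0.41 in array 2 and -0.11 to 0.08 in the controls, so array 1 no longer lay outside them. The gap is a description of 8 chosen genes and was given no test. The classical rows are all in the brightest class described above, and the part of brightness in this gap was not tested.

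**Figure D4:**
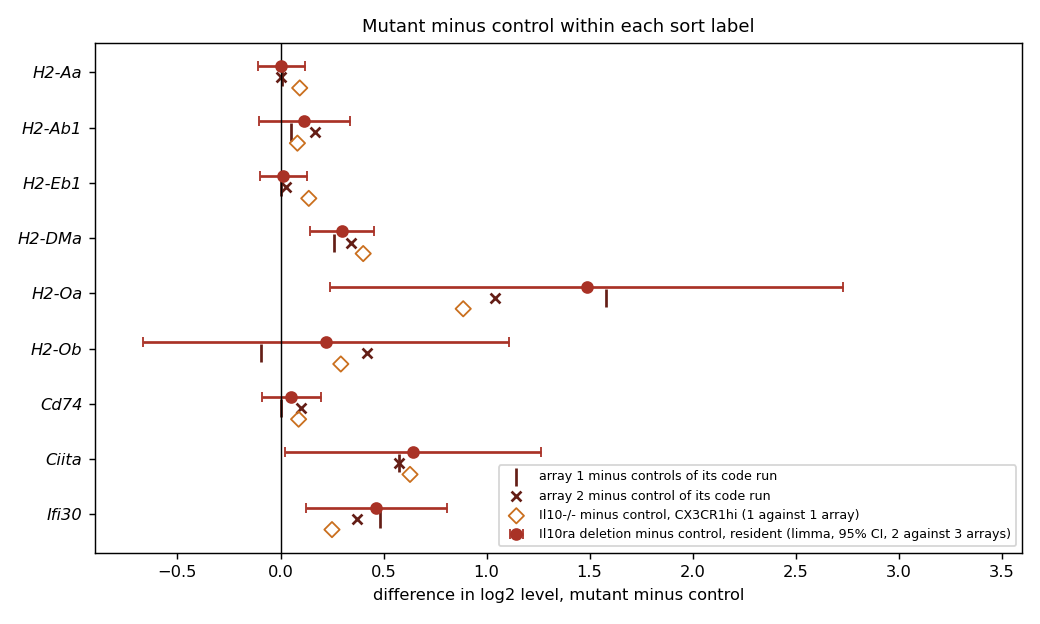
Difference in log2 level, mutant minus control of the same sort label, for each class II gene. Red points give the Il10ra deletion with 95% confidence intervals (not adjusted for the number of genes), dark marks the values within each run of sample codes, and open diamonds the single Il10-deficient array minus its control. Ciita lies near 0.6 in both comparisons, and the intervals of H2-Aa, H2-Ab1, H2-Eb1, H2-Ob and Cd74 span 0.

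In CX3CR1hi macrophages 1 array of Il10-deficient mice was set against 1 control array, so these are differences between single arrays. All 9 genes were higher in the Il10-deficient array, with a median of 0.25, where 56.3% of all genes were higher and the median of all genes was 0.03. Markers of other cells differed in the same pair: 10 of 10 fibroblast and muscle markers were lower in the Il10-deficient array (median -0.64, 7 by at least 1.5-fold), as were 11 of 12 epithelial markers (median -0.57, 5 by at least 1.5-fold), where 4.42% of all genes were lower by that much. Of the macrophage markers 11 of 12 were higher, with a median of 0.17. The part of these cells in the class II values was not tested. Ciita stood at 9.89 in the control and 10.52 in the Il10-deficient array, 1.55-fold higher. H2-Oa stood at 6.36 and 7.25, 1.85-fold higher. These were the 2 of 9 genes at least 1.5-fold higher, against 2.70% of all genes.

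H2-DMa stood at 11.82 in the control and 12.22 in the Il10-deficient array, a difference of 0.40. H2-Ob stood at 9.08 and 9.37, and Ifi30 at 12.24 and 12.49. The classical chains were close to each other here too: H2-Aa at 13.34 and 13.44, H2-Ab1 at 13.16 and 13.25, H2-Eb1 at 13.06 and 13.20, with Cd74 at 13.05 and 13.14. When the spread is borrowed from the resident arrays, 0 of 9 genes passed by limma, where 7.90% of all genes did (1576). The smallest adjusted p was 0.0902, for H2-DMa. At an unadjusted p under 0.05 by limma, 1 of 9 was higher (H2-DMa), against 10.4% of all genes. The count over all genes was 21 after quantile normalization and 2 with dim genes left out. The spread of CX3CR1hi arrays themselves was not measured.

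Whether the effects of both mutants differ was tested for each gene, as the Il10ra-deletion effect minus the Il10 effect. It was 0.02 ± 0.41 (SE) for Ciita, with an interval of -1.13 to 1.16, and 0.60 ± 0.81 for H2-Oa, from -1.70 to 2.89. For H2-DMa it was -0.10 ± 0.10, from -0.39 to 0.18, and for Ifi30 0.22 ± 0.22, from -0.42 to 0.85. No gene of the 9 passed this test by limma (adjusted p of 0.612 to 1.000), where 4.70% of all genes did. The intervals are wide, so the test does not show that both mutants act alike.

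Between control arrays the sort labels differed for the bright rows. The CX3CR1hi control array minus the mean of the resident controls was -0.22 for H2-Aa, -0.41 for H2-Ab1, -0.40 for H2-Eb1 and -0.49 for Cd74. It was 0.11 for Ciita, 0.15 for H2-DMa, 0.33 for H2-Ob, -0.08 for H2-Oa and -0.04 for Ifi30. The 4 lower genes are those near the top of the scale, and that top is itself lower in the CX3CR1hi arrays, as given above. Label, kit and scale cannot be told apart.

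The genes with the most similar pattern were sought among 18256 genes by the root mean square difference of centred log2 values over 7 arrays. For H2-Aa these were Mypn, Ankrd33b and Obp2a, at 0.0075 to 0.0083. Mypn at 4.11 to 4.33 and Obp2a at 4.32 to 4.55 lie under the table's median, and Ankrd33b at 5.75 to 5.99 lies near it. They share with H2-Aa the flat values in resident arrays and the lower values in CX3CR1hi arrays. For Ciita the nearest were Heatr1 (0.073), Tnfsf13b (0.079), which encodes the B cell survival factor BAFF, and Fes (0.082), a myeloid tyrosine kinase. Of the class II genes Ifi30 was nearest to Ciita, at place 452, and H2-Oa farthest, at place 11120.

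Of 28 other genes of the class II pathway 26 were measured. The others were not analysed here. In the Il10ra-deleted arrays 18 were higher (beside 48.8% of all genes) and 8 lower than control, and 0 passed by limma at an adjusted p under 0.05. At an unadjusted p under 0.05, 4 were higher (beside 4.06% of all genes) and 0 lower (beside 3.86%), and 9 had both Il10ra-deleted arrays above all controls, with 0 below (8.92% and 8.50% of all genes). The median difference was 0.06. In the CX3CR1hi pair 22 were higher (beside 56.3% of all genes) and 4 lower, with a median of 0.25.

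The listed genes of interferon-gamma signalling upstream of Ciita are receptors, kinases, a transcription factor and the inhibitor Socs1. In the Il10ra-deleted arrays 6 of 6 were higher (beside 48.8% of all genes), with a median of 0.41. Irf1, the interferon regulatory factor that acts at a Ciita promoter, stood at 10.84, 10.42 and 10.27 in the controls and 11.79 and 11.37 in the Il10ra-deleted arrays. It was 2.10-fold higher (log2 1.07 ± 0.24, SE) without passing (adjusted p = 0.428 by limma). Within the sample runs its difference was 1.16 and 1.10. These values are from the brightest row of Irf1. With the mean of all its rows the log2 difference was smaller, at 0.61.

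Socs1, an inhibitor of the JAK kinases, stood at 4.86, 4.89 and 4.93 in the controls and 5.63 and 5.58 in the Il10ra-deleted arrays. Its difference of 0.71 ± 0.03 (SE) did not pass with all arrays (adjusted p = 0.0902 by limma). All of these values lie under the table's median of 5.86. In the CX3CR1hi pair Socs1 stood at 4.66 and 5.65. That difference of 0.98 passed with the spread borrowed from resident arrays (adjusted p = 0.0067 by limma), and did not pass after quantile normalization (adjusted p = 0.0948) or with all control arrays as 1 group (adjusted p = 0.344). Jak2 was 0.92 ± 0.30 (SE) higher in the Il10ra-deleted arrays, at 8.27 to 9.16 in the controls and 9.6 in both arrays of the deletion, without passing. Socs1 passed for the deletion in 3 of its 14 alternatives, at an adjusted p of 0.0156 after quantile normalization, 0.00841 with median centring and 0.050 without Il10ra-deleted array 2, by limma.

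Among the factors that bind the shared promoter elements, 1 of 7 had both Il10ra-deleted arrays above the controls, beside 8.92% of all genes. That was Rfx5, a subunit of the X-box factor RFX, at 7.57, 7.42 and 7.61 in the controls and 7.81 and 8.04 in the Il10ra-deleted arrays (0.39 ± 0.10, SE, adjusted p = 0.491 by limma). Its partners Rfxap and Rfxank differed by 0.05 and -0.10, and the NF-Y subunits Nfya, Nfyb and Nfyc by 0.01, -0.01 and 0.07. Of the myeloid factors, Irf8 differed by 0.38, Spi1 by 0.22 and Irf4 by -0.41.

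The endosomal proteases had a median difference of 0.01. Ctss, which makes the last cut in the invariant chain, was 0.45 ± 0.20 (SE) higher and Ctsd 0.44 ± 0.16. These were the 2 of 5 proteases with both Il10ra-deleted arrays above all controls, beside 8.92% of all genes. For Ctss, control array 3 at 12.12 lay just under Il10ra-deleted array 1 at 12.14. Neither gene passed (adjusted p = 0.678 and 0.630 by limma). Ctsl differed by -0.03, Ctsb by 0.01 and Lgmn, the asparaginyl endopeptidase, by -0.09. Lgmn stood at 12.93, 12.93 and 13.01 in the controls and at 12.81 and 12.93 in the Il10ra-deleted arrays.

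Genes that set how long class II stays on the surface differed in direction. Marchf1, a ubiquitin ligase that removes class II from the surface, was 0.25 ± 0.10 (SE) higher. It was the 1 of 3 such genes with both Il10ra-deleted arrays above the controls, beside 8.92% of all genes. Marchf8, its relative, stood at 7.78, 7.87 and 7.78 in the controls and 7.45 and 7.78 in the Il10ra-deleted arrays. Cd83, which opposes Marchf1, stood at 12.68, 12.14 and 12.77 in the controls and 11.77 and 12.17 in the Il10ra-deleted arrays, a difference of -0.56 ± 0.27 (SE, adjusted p = 0.678 by limma). H2-Eb2, a class II gene beside H2-Eb1, was at 5.85 to 6.06 in the controls and at 6.06 and 7.54 in the Il10ra-deleted arrays, so its difference of 0.87 rests on array 2.

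**Figure D5:**
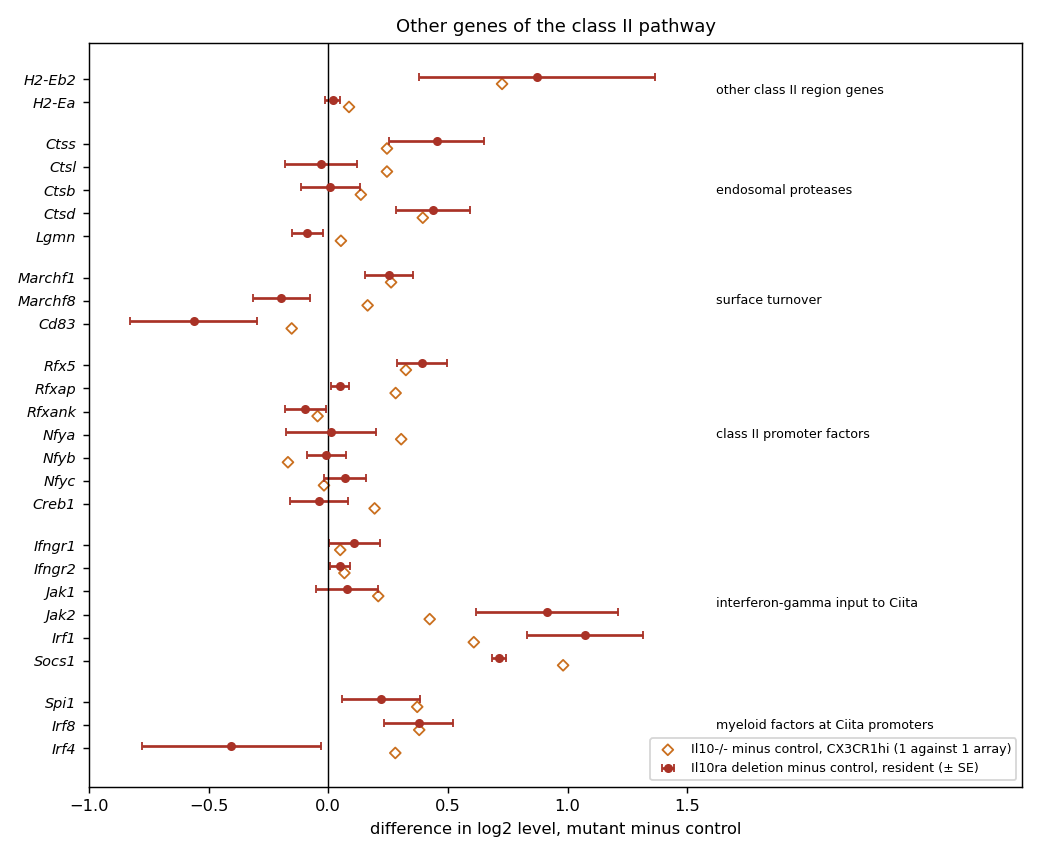
Difference in log2 level, mutant minus control of the same sort label, for 26 other genes of the class II pathway grouped by role. Red points give the Il10ra deletion with the standard error (2 against 3 arrays), and open diamonds the Il10-deficient array minus its control; Irf1 and Jak2 are the genes with the largest red values and Cd83 has the lowest.

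Class II genes are read in other cells too, so markers of those cells were set beside these results. B and plasma cell markers, 11 of 12 measured, had list means of 6.52 to 6.74 in the resident controls and 6.84 and 7.70 in the Il10ra-deleted arrays. Of these markers 3 had both Il10ra-deleted arrays above the controls and 1 below (beside 8.92% and 8.50% of all genes). The B cell gene Ms4a1 stood at 5.70 to 6.19 in the controls and 6.72 and 8.16 in the Il10ra-deleted arrays, chosen for mention after its values were seen. H2-Ob, H2-Eb2, H2-Oa and Ciita were also highest in Il10ra-deleted array 2, and the part of B cells in these values was not tested. In the CX3CR1hi pair the list means were 6.19 and 6.31. Of 11 markers 7 were higher (beside 56.3% of all genes) and 4 lower in the Il10-deficient array. There Ms4a1 stood at 4.45 and 4.60, Cd79b at 9.17 and 9.67, and Cd22, also chosen after its values were seen, at 9.25 and 10.10. The part of B cells in the values of the pair was not tested either. The most abundant listed genes were Jchain, at 10.94 to 11.60 over the 7 arrays, and Cd79b, at 8.58 to 9.67.

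Dendritic cell markers had list means of 6.46 to 6.75 in the resident controls and 6.84 and 7.14 in the Il10ra-deleted arrays. Of 11 markers 6 were above and 3 below all controls in both Il10ra-deleted arrays (beside 8.92% and 8.50% of all genes). In the CX3CR1hi pair the means were 6.32 and 6.49. Their brightest members were Dpp4, at 8.24 to 9.15 over the 7 arrays, and Kmo, at 7.74 to 9.16. Clec9a, which marks dendritic cells that cross-present antigen, stood at 5.65 to 6.34 in the resident controls, 8.58 and 9.32 in the Il10ra-deleted arrays, and 5.80 and 8.44 in the CX3CR1hi pair, chosen for mention after its values were seen. Cd209a, a lectin of another dendritic cell subset and also chosen after its values were seen, differed the other way. It stood at 8.63, 8.83 and 9.65 in the resident controls, 6.47 and 7.16 in the Il10ra-deleted arrays, and 8.12 and 5.69 in the CX3CR1hi pair. Dpp4 and Kmo were lower too, by log2 differences of -0.32 and -0.72 for the deletion and -0.48 and -0.92 in the pair. Flt3, Zbtb46 and Itgae were under the table's median in every array. The part of dendritic cells in the class II values was not tested.

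The other lists had the following values in resident control and then Il10ra-deleted arrays. Macrophage list means were 11.81 to 11.92 and then 11.86 and 12.08, with Lyz2 (13.08 to 13.66 over the 7 arrays) and C1qb (12.80 to 13.36) brightest. Monocyte list means were 7.55 to 7.78 and then 8.19 and 7.48, with Ccr2 (9.75 to 11.34) and Plac8 (9.50 to 11.22) brightest. Neutrophil list means were 5.65 to 5.71 and then 6.33 and 5.91, with Csf3r (8.33 to 10.02) and Ly6g (6.95 to 9.70) brightest. T cell and ILC means were 6.06 to 6.32 and then 6.33 and 6.40, with Cd4 (10.36 to 11.19) and Il7r (7.98 to 9.97) brightest.

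Epithelial list means were 10.80 to 11.19 in the controls and then 11.01 and 9.19, with Krt8 (11.50 to 13.08 over the 7 arrays) and Car1 (9.19 to 13.31) brightest. Fibroblast and muscle means were 7.06 to 7.55 and then 6.65 and 6.55, with Dcn (9.26 to 11.39) and Acta2 (8.74 to 9.85) brightest. Endothelial means were 5.94 to 6.15 and then 5.98 and 5.86, with Pecam1 (7.17 to 8.51) and Cdh5 (5.50 to 6.73) brightest. Il10ra-deleted array 2 thus had the least epithelial signal and, among the 5 resident arrays, the highest value of each of the 9 class II genes, shared for H2-Aa with 3 other arrays. Both Il10ra-deleted arrays lay below all controls for 6 of 10 fibroblast and muscle markers and 4 of 12 epithelial markers (beside 8.50% of all genes). By group means, 6 of 10 fibroblast and muscle and 11 of 12 epithelial markers were at least 1.5-fold lower, as were 701 of all 19938 genes. The part of these cells in the class II values was not tested. In sorted bulk cells, fewer cells of a type and less RNA per cell cannot be told apart.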

How the data were processed

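RNA from 7 sorted samples was measured on Affymetrix arrays. The deposited values are log2 expression values made by the authors with RMA and Partek, per the submitters' processing notes; no version or genome build is stated there. They run from 3.55 to 14.78. Depth has no meaning for arrays, and their number limits the precision. In the table, differences of dim and of very bright genes are small, and array scales can understate them.

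Of 35399 rows, 21789 have 1 gene symbol, 1621 several and 11989 none. For genes with several rows the brightest was kept, leaving 19938 genes. Limma 3.58.1 in R 4.3.3 fitted a mean for each of 4 groups, then eBayes with a trend, with 3 residual degrees of freedom. P-values are two-sided and adjusted by Benjamini-Hochberg over all genes. The fit was tested on simulated data.

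The text names all class II genes, pathway genes that passed or had the 3 smallest p in each direction, and the 2 brightest markers of each cell list. For H2-Aa and Ciita it names the 3 genes of most similar pattern, leaving out predicted and clone-named genes. Genes named besides are other pathway members given with their group, the markers Ms4a1, Cd22, Clec9a and Cd209a, and genes with opposite effects in the 2 mutants. Members and lists were chosen with earlier results of these data known. Alternatives covered the variance model, a filter on dim genes, normalization, the arrays fitted, runs of sample codes, the row per gene and each resident array left out.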

Additional observations from a re-analysis of the deposited data

Results flagged for a closer look

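The 9 class II genes, the 26 pathway genes and the 86 cell markers, 121 in all, were searched for opposite effects: both Il10ra-deleted arrays on 1 side of the mean of their controls and the Il10-deficient array on the other side of its own. No class II gene met this. The values below are the Il10ra-deletion effect minus the Il10 effect on the log2 scale. Of the pathway genes, Ctsl stood at -0.28, Lgmn at -0.14, Marchf8 at -0.36 and Nfyc at 0.087. Of the macrophage and monocyte markers, Adgre1 stood at -0.26, Cx3cr1 at -0.65, Plac8 at 1.10 and Chil3 at -0.14. Of the other markers, Flt3 stood at 0.46, Cd79a at 1.26, Blk at 0.43, Elane at -0.11, Des at 0.28 and Vwf at -0.18. As a contrast in limma the difference passed for Des (adjusted p = 0.0245), whose values lie under the table's median in every array. It did not pass for the others, with the smallest adjusted p at 0.329 for Cx3cr1. Groups of 3 or fewer arrays were not searched for single outlying arrays.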

How the results depend on the processing

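No class II gene passed at an adjusted p under 0.05 in any alternative, with limma adjusted p of 0.142 to 1 for the Il10ra deletion over 135 values, 0.0667 to 0.953 for the Il10-deficient pair over 126 and 0.159 to 1.000 for the difference of both over 126. H2-DMa, H2-Oa, Ciita and Ifi30 stayed higher in the Il10ra-deleted arrays in all 15 alternatives, at 0.24 to 0.35, 1.23 to 1.84, 0.44 to 0.85 and 0.38 to 0.54. Most of these alternatives could not reverse the sign. Several leave the difference itself unchanged, and leaving out 1 resident array cannot reverse genes whose groups do not overlap. The median difference of the class II genes for the deletion (0.22) was 0.17 after quantile normalization, 0.27 with median centring, 0.13 with the runs of sample codes as a block, and 0.032 to 0.338 with 1 resident array left out, the lowest without Il10ra-deleted array 2 and the highest without array 1. For the Il10-deficient pair (0.25) it was 0.30 with median centring. Classical chains minus chaperones and Ciita (-0.36 in the pair) was -0.61 with all control arrays as 1 group. With H2-Oa left out of the set, chosen after seeing the data, it was -0.26 for the deletion (-0.50 with it) and -0.25 in the pair.

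For the deletion, H2-Aa and H2-Eb1 were at -0.0054 and -0.0047 after quantile normalization, and H2-Ob ran from -0.21 without Il10ra-deleted array 2 to 0.65 without array 1. With all control arrays as 1 group, the Il10-deficient array was lower for H2-Aa (-0.068), H2-Ab1 (-0.23), H2-Eb1 (-0.16) and Cd74 (-0.28), and the difference of both effects turned for H2-Aa (0.13), H2-Eb1 (0.27) and Cd74 (0.46). That difference also turned without 1 array for H2-Ab1 (-0.050 to 0.119), H2-Ob (-0.503 to 0.357) and Cd74 (-0.083 to 0.012). For Ciita it was -0.0011 after quantile normalization, -0.054 with the block, -0.093 with all controls as 1 group and -0.193 to 0.223 with 1 array left out. With all control arrays as 1 group, the Il10-deficient array is set mostly against resident controls. H2-Aa, H2-Ab1, H2-Eb1 and Cd74 are brighter in those, as given above. The cause of the turns in the other settings was not tested.

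The number of genes called varied more. For the deletion (1) it was 4 without the variance trend, 12 with dim genes left out, 114 after quantile normalization, 146 with median centring, 0 with the block, 70 with all controls as 1 group and 0 to 267 with 1 array left out, 0 without each control array and 266 and 267 without an Il10ra-deleted array. For the pair (1576) it was 758, 2, 21, 31, 446 and 0 in the same order, 1043 with robust eBayes and 559 (without control array 2) to 2788 (without Il10ra-deleted array 1) with 1 array left out. For the difference of effects (937) it was 30, 1, 8, 17, 0 and 1 in the same order, 387 with robust eBayes and 0 (without control array 2) to 2200 (without Il10ra-deleted array 2) with 1 array left out. Leaving out an Il10ra-deleted array leaves 1, which is assumed to vary like the other groups. A fit of the CX3CR1hi pair alone was not run, since 2 arrays leave no residual degrees of freedom. No paired analysis was possible because the labels give no replicate numbers. The runs of sample codes were used as the block in its place.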
